A study of Rattus norvegicus with 8 samples.

Results

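The genes of the Mediator complex were followed through the lumbar spinal cord of rats under chronic water avoidance (WA) stress. Members were the array probes, control spots left out, whose gene symbol in the file starts with Med and a number or is Ccnc, Cdk8 or Cdk19. This gave 31 probes of 25 genes among 30367 probes in all, and 30 of them, which cover all 25 genes, were bright enough to be tested. The complex was chosen from a readout of these same arrays, the lower signal of a Med15 probe in stressed rats. The values of that probe are therefore a description, with no test, and the same contrast in the other members supports nothing by itself.

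RNA of the L6S1 segments of the lumbar cord was hybridised to Agilent 1-colour rat gene expression arrays, 1 array per rat, with 4 rats exposed to WA stress and 4 control rats. All were male Wistar rats aged 12 weeks. Stressed rats spent 1 h a day for 10 days on a platform surrounded by water, and tissue was taken 24 h after the last session. The cord was flushed out of the spine, its meninges were removed, and whole segments were used, so that fewer cells of a type and less RNA per cell cannot be told apart. The arrays shared 1 slide, where row 1 held every stressed rat and row 2 every control rat, so row and group cannot be told apart.

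Mediator is a large protein complex that carries signals from transcription factors bound at enhancers and promoters to RNA polymerase II. Its head and middle modules contact the polymerase, its tail is the main docking place for transcription factors, and a kinase module binds the complex reversibly and regulates it. Med15 belongs to the tail and is known for binding the SREBP factors of lipid synthesis and the SMAD factors of TGF-beta signalling. The kinase module consists of cyclin C (Ccnc), Cdk8 or its paralog Cdk19, Med12 or its paralog, and Med13 or its paralog Med13l.

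The results turn on a small number of 60-base probes, which are shown because several of these genes carry more than 1 probe and the probes of a gene did not behave alike. Each is written as the files list it, and AATAAA, the hexamer that signals polyadenylation near the 3′ end of a transcript, is in capitals. It was searched on the listed strand only and occurs in 3 of the 31 Mediator probes, those of Med8, Med24 and Med25, and in 8.39% of all 30367 probes.
Med15 5′ probe, first base 1636 of the transcript, chr11:85341166-85341293 of rn4, plus strand: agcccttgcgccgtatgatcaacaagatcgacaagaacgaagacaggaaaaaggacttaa
Med15 3′ probe, first base 3079, chr11:85344836-85344895, plus strand: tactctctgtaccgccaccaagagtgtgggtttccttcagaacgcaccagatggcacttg
Med24, first base 3294, chr10:87477374-87477433, minus strand: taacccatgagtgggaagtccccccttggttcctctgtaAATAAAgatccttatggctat
Med25, first base 2260, chr1:95351533-95351592, minus strand: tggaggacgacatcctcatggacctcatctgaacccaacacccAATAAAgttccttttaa
Ccnc 5′ probe, first base 847, chr5:36479667-36479726, plus strand: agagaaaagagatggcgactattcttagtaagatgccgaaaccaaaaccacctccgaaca
Ccnc 3′ probe, first base 2285, chr5:36482517-36482576, plus strand: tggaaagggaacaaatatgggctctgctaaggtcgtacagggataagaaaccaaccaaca
Med13, first base 6054, chr10:74504358-74504417, minus strand: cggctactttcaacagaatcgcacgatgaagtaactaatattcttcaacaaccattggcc
Med13l 5′ probe, first base 5431, chr12:39144160-39144219, minus strand: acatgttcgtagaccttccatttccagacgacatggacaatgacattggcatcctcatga
Med13l 3′ probe, first base 8479, chr12:39136308-39136367, minus strand: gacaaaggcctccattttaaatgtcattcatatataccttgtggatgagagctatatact
Med30, first base 270, chr7:89004796-89004855, plus strand: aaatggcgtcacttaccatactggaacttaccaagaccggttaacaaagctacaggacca
Med4, first base 550, chr15:54167330-54167389, plus strand: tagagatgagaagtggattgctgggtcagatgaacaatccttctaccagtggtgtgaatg
The 5′ probe of Med15 covers 128 bases of the genome with its 60 bases, so its listed interval is interrupted, and the 3′ probe covers 60. Exons and UTRs were not analysed here because no genome of this build was read.

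Signals are given as log2 of the processed signal minus the 75th percentile of the array, so that 0 is the 75th percentile, and they are not compared between probes. Differences are stressed minus control. Probes well above background numbered 22997 to 24059 on an array. Markers of neurons, astrocytes and oligodendrocytes that the array carries, 12 in all, were well above background on all 8 arrays, as the label of spinal cord calls for. Control replicate 2 did not group with its own kind. It had a score of -46.1 on principal component 1 (54.1% of the variance), where stressed rats had -34.5 to -8.23 and control replicates 1, 3 and 4 had 39.4 to 56.3.

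Between stressed and control rats, limma called 5 of the 30 Mediator probes at an adjusted p below 0.1, against 3.74% of the 23677 probes tested. Of these, 4 rose (Ccnc, Med13, Med30 and Med4), against 2.77% of all probes, and 1 fell, the Med15 probe that led to the choice of the complex, against 0.971% of all. At 11 of the 30 probes the ranges of the groups lay apart, against 12.1% of all, with stressed rats higher at 6 (6.65% of all) and lower at 5 (5.44% of all). As the same contrast chose the complex, nothing is read from the distance between these shares.

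The median difference over the 30 probes was 0.09, beside 0.06 over all tested probes, and 17 probes had a positive and 13 a negative difference. The number of calls changed when single rats were left out. Without control replicate 2, limma called 18 of the 30 Mediator probes and 10038 of all probes. Without any 1 of the other 7 rats it called 0 of the 30, with 8 or 9 at an unadjusted p below 0.05. In these fits 3003 to 4398 of the 23677 tested probes had such a p. Over all 8 rats it was 10 of the 30 and 20.3% of all tested probes. A fit with fewer rats also has less power, so these 0 calls single out no rat. With the column of the slide as a block, which each control rat shared with the stressed rat of the same number, limma called 0 of the 30, with 9 at an unadjusted p below 0.05. Quantile normalization in place of the 75th percentile left 3 Mediator probes called (Ccnc, Med13 and Med15), and over all probes 618 were higher and 633 lower, where the main scaling gave 655 and 230.

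**Figure D1:**
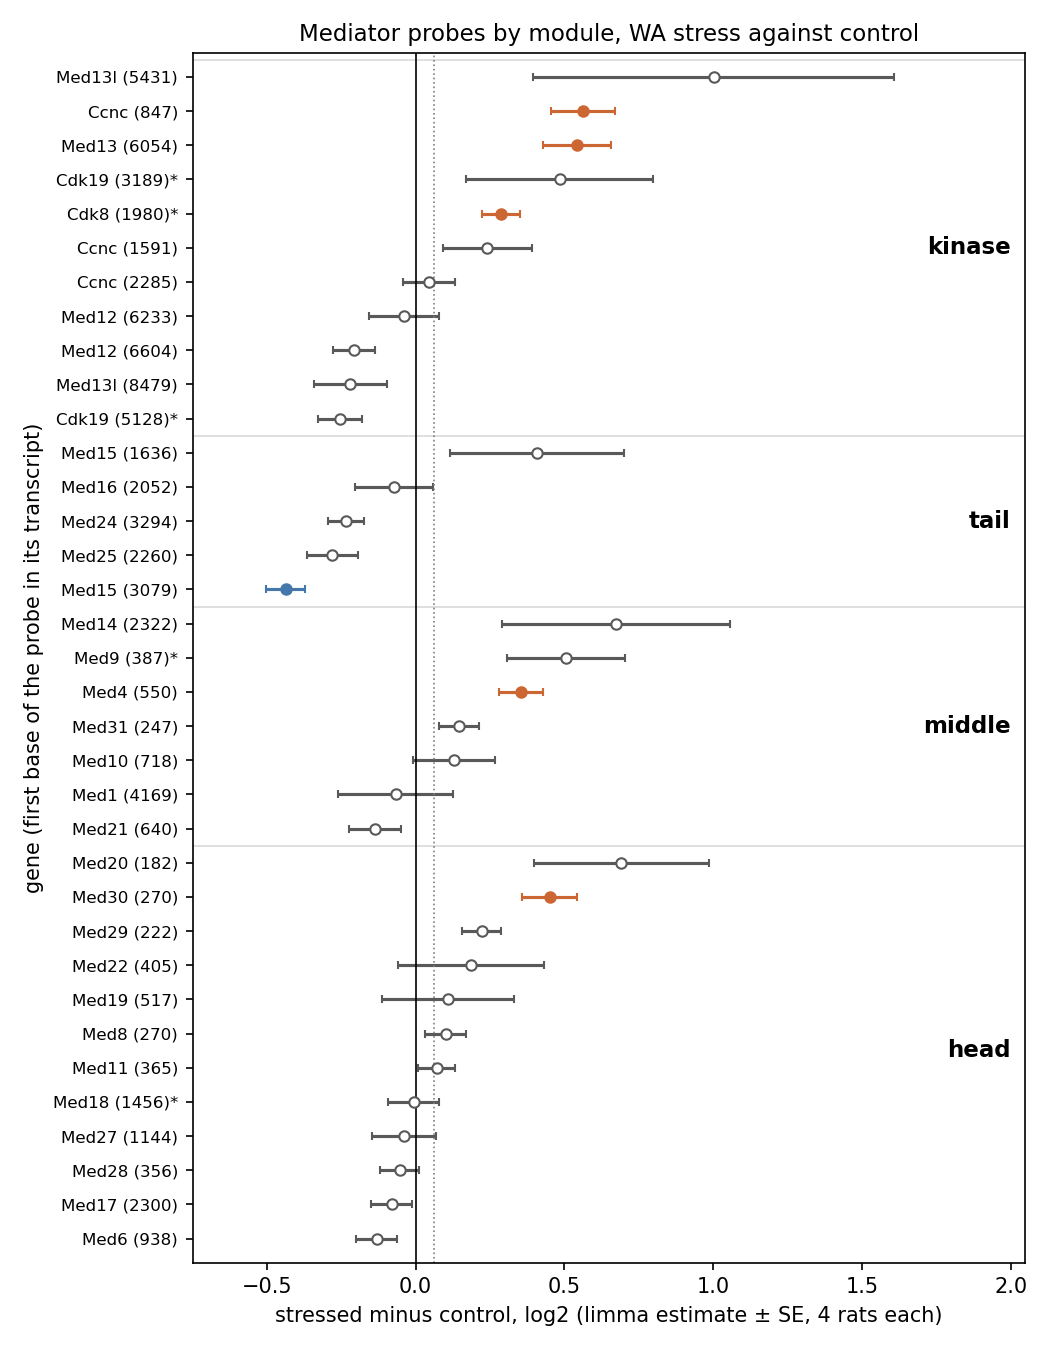
Difference between stressed and control rats (x axis, log2, limma estimate ± SE, 4 rats each) for each tested Mediator probe, grouped by module, with the first base of the probe in brackets. Filled points were called at an adjusted p below 0.1, orange higher and blue lower, the dotted line is the median of all tested probes (0.06), and an asterisk marks genes listed under an older symbol. The 3 lowest points of the tail lie left of 0 at -0.44, -0.28 and -0.23, while the filled points of the other modules lie right of 0.

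The 3′ probe of Med15 was the largest negative difference of the complex. Its signal was 1.03, 0.91, 0.99 and 1.01 in control rats 1 to 4 and 0.63, 0.52, 0.51 and 0.53 in stressed rats 1 to 4. Every stressed rat lay below every control rat. The group means were 0.98 ± 0.05 and 0.55 ± 0.05 (SD, n = 4), a difference of -0.44, or a signal 1.35-fold lower in stressed rats. This is the value that chose the complex and it carries no test here. The difference lay between -0.46 and -0.39 under all 18 other settings and left-out rats.

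The 5′ probe of Med15 had a difference of the other sign. It read -5.46, -4.04, -5.29 and -5.00 in control rats and -4.50, -4.47, -4.42 and -4.77 in stressed rats, a difference of 0.41 ± 0.29 (SE). Control replicate 2 was the highest of the 8 rats and the other 3 control rats were the lowest, so the groups overlapped. Under the main setting it was not called, but it was called under 3 of 18 settings, and not in one direction. Without control replicate 2 the difference was 0.71 and was called higher, as it was with array weights. With an array-wide 5′ minus 3′ measure as covariate it was -0.32 and was called lower. That covariate, defined further on, is how far the 5′ end of transcripts shone above the 3′ end on an array. This probe is dim, though it was well above background on all 8 arrays.

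To set Med15 against the rest of the complex, the median of the 28 tested probes of the other 24 genes was taken in each rat. That median was -0.89, -0.99, -0.89 and -0.84 in control rats and -0.80, -0.72, -0.71 and -0.76 in stressed rats. It was higher in every stressed rat, with means of -0.90 ± 0.06 and -0.75 ± 0.04 (SD, n = 4). The 3′ probe of Med15 minus this median was 1.92, 1.90, 1.88 and 1.84 in control and 1.42, 1.24, 1.23 and 1.29 in stressed rats, with means of 1.88 ± 0.03 and 1.29 ± 0.09. The difference of -0.59 lay between -0.63 and -0.54 under the other settings. For the 5′ probe the same measure was -4.05 ± 0.69 in control and -3.79 ± 0.15 in stressed rats, a difference of 0.26, within the spread of the control rats. Both are descriptions, since Med15 was picked for its difference. Each rests on a median of signals as they stand, and so on the probes of middle rank, which changed between rats. The shift of that median, 0.15, is therefore not the typical difference of a probe. Probe by probe, the median of the 28 differences was 0.09.

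**Figure D2:**
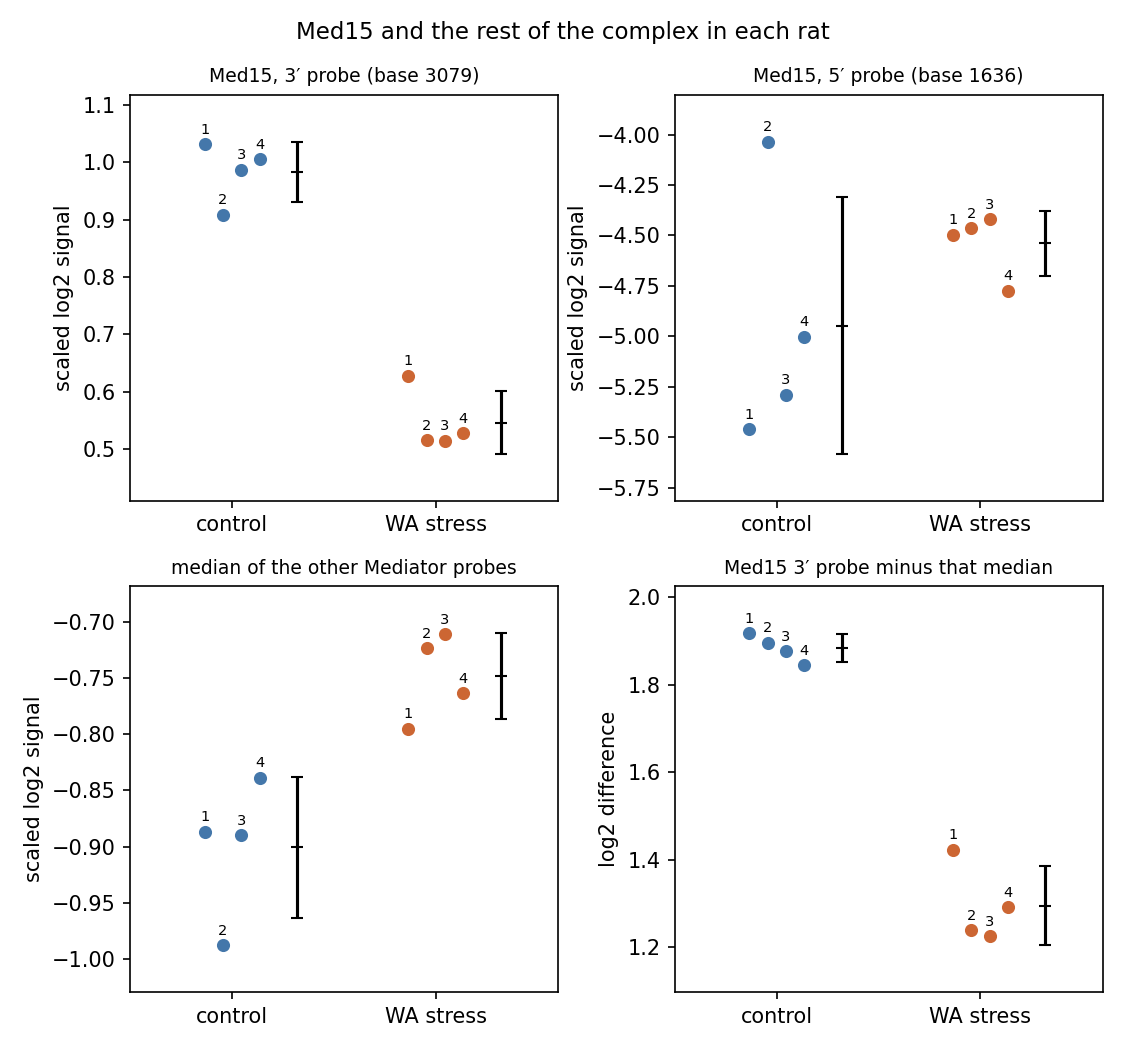
Med15 and the other Mediator probes in each rat (points, numbered by replicate, with mean ± SD beside them). The upper panels show the 3′ and the 5′ probe of Med15 and the lower panels the median of the 28 other probes and the 3′ probe minus that median, all in log2 with an axis of its own. The 3′ probe separates the groups, at 0.91 to 1.03 against 0.51 to 0.63, while on the 5′ probe control replicate 2 is the highest rat at -4.04.

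Genes were sorted into modules by a list chosen here, which places Med27, Med28, Med29 and Med30 in the head. By that list the tail was the module in which most signals were lower under stress. The counts by module rest on this choice. Med29 and Med30, placed in the head, were higher under stress with the groups apart, by 0.22 and 0.45. Med27 and Med28 differed by -0.04 and -0.05, with overlapping groups. A list that puts these genes in the tail would not give a tail of negative differences only. Of the 4 tail genes on the array, Med15, Med24 and Med25 had brightest probes whose groups did not overlap, all lower in stressed rats. The groups of Med16 overlapped. Over all tested probes 5.44% lay apart in this direction, and Med15 is the gene that chose the complex. Med24, a tail subunit that works with nuclear receptors, read 1.65, 1.61, 1.62 and 1.61 in control and 1.43, 1.39, 1.32 and 1.42 in stressed rats. All 4 stressed rats lay below the control rats, which spread little (SD 0.02), with a difference of -0.23 ± 0.06 (SE; limma adjusted p = 0.109). Med25, which takes up activation domains of several transcription factors, read 1.50, 1.40, 1.54 and 1.60 in control and 1.31, 1.20, 1.08 and 1.35 in stressed rats. Its groups lay apart as well, with a difference of -0.28 ± 0.08 (limma adjusted p = 0.145). Neither passed the threshold over all 8 rats. Both passed it without control replicate 2, at an adjusted p of 0.0150 for Med24 and 0.0222 for Med25, and with an intensity trend in limma, at 0.0543 and 0.0913. Under most settings neither passed. Over the 19 settings run, the main one included, Med24 was called under 5 and Med25 under 3. Their limma adjusted p reached 0.295 and 0.349.

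Med16, a tail subunit next to Med24 and Med25, differed by -0.07 ± 0.13 (limma adjusted p = 0.767). Control replicate 2 read -1.05, above the -1.68 to -1.43 of the other control rats and the -1.59 to -1.44 of the stressed rats. Without that rat the difference was 0.05. With the 5′ minus 3′ covariate it was -0.36 and was called (adjusted p = 0.0693). No probe was matched to Med23, the remaining tail gene of the list used here, and its expression was not analysed. Over the brightest probes of the 4 tail genes the median difference was -0.26, beside 0.11 over the 21 genes of the other modules, and 4 of 4 were negative, beside 8 of 21. These 4 include the 3′ probe of Med15 that chose the complex, so the contrast supports nothing by itself. Over all 5 tested tail probes, the 5′ probe of Med15 included, 4 were negative and 1 was positive. In the modules other than the tail, limma called 4 of 25 probes higher and 0 lower, beside 2.77% and 0.971% of all tested probes. It gave 7 an unadjusted p below 0.05, beside 20.3% of all. The groups lay apart with stressed rats higher at 6 (6.65% of all) and lower at 2 (5.44% of all).

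**Figure D3:**
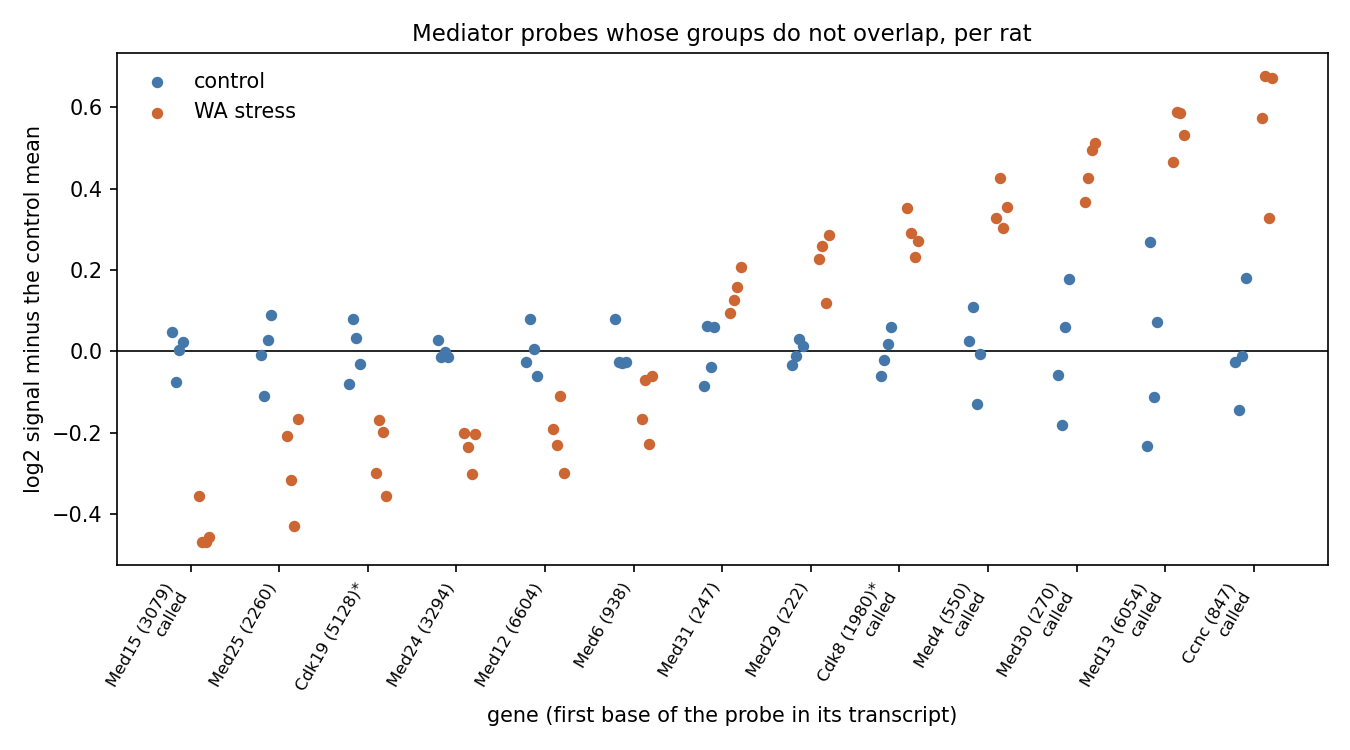
Signal of each rat minus the control mean of the probe (y axis, log2) for the Mediator probes whose groups do not overlap, control rats in blue and stressed rats in orange, with an asterisk for genes listed under an older symbol. "called" marks a limma adjusted p below 0.1. From left to right the differences run from -0.44 for Med15 to 0.56 for Ccnc, and Med24 and Med25 stand on the same side as Med15.

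In the kinase module, 2 of 8 probes were called, both higher, beside 2.77% of all tested probes called higher. Cyclin C, the partner that activates Cdk8, was measured by 3 probes. The probe at base 847 read -0.98, -1.10, -0.97 and -0.78 in control and -0.38, -0.28, -0.63 and -0.28 in stressed rats. The lowest stressed rat was above the highest control rat, and the mean was 1.48-fold higher (difference 0.56 ± 0.11; limma adjusted p = 0.0656). The probes further along the same transcript differed less. At base 1591 the difference was 0.24 ± 0.15 (adjusted p = 0.384) and at base 2285 it was 0.04 ± 0.09 (adjusted p = 0.784), both with overlapping groups. The rise of cyclin C was thus called on 1 of its 3 probes.

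Med13, the subunit that ties the kinase module to the rest of the complex, read -4.21, -3.71, -4.09 and -3.91 in control and -3.52, -3.39, -3.39 and -3.45 in stressed rats. It rose 1.46-fold, by 0.54 ± 0.11 (limma adjusted p = 0.0772), with the groups apart. Med12, which activates the kinase through cyclin C, had differences of -0.21 ± 0.07 at base 6604 (adjusted p = 0.178) and -0.04 ± 0.12 at base 6233 (adjusted p = 0.868). At base 6604 control rats read 0.36 to 0.50 and stressed rats 0.12 to 0.31, so the groups did not overlap.

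Med13l, the paralog of Med13, had a 3′ probe with a difference of -0.22 ± 0.12 (adjusted p = 0.342) and a 5′ probe with a difference of 1.0 ± 0.61 (adjusted p = 0.373). The 3′ probe read -0.44, -0.92, -0.39 and -0.44 in control and -0.83, -0.77, -0.71 and -0.76 in stressed rats. The 5′ probe read -8.23, -5.09, -7.60 and -7.28 in control and -6.34, -5.94, -5.80 and -6.10 in stressed rats. On each, control replicate 2 lay beyond the stressed rats while the other 3 control rats lay on their other side. The 5′ probe was well above background on 2 of the 4 control arrays and on all 4 stressed arrays.

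The kinases themselves carry older symbols in the files and were matched through their RefSeq accessions, so they lie outside the rule. Of 4 Mediator genes found in this way with 5 probes, 1 was called, beside 3.74% of all tested probes. Cdk8, the kinase of the module, read -1.0, -0.96, -0.92 and -0.88 in control and -0.58, -0.64, -0.70 and -0.66 in stressed rats and rose 1.22-fold, by 0.29 ± 0.06 (limma adjusted p = 0.0853). Its groups did not overlap. Cdk19, the paralog that can take its place, had a 3′ probe with a difference of -0.25 ± 0.07 (adjusted p = 0.138), with control rats at -0.76 to -0.60 and stressed rats at -1.03 to -0.85, and a dim 5′ probe with 0.48 ± 0.31 (adjusted p = 0.400).

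The head module, which binds the polymerase first, had 1 of 11 probes called, beside 3.74% of all tested probes. Med30, a subunit of animals that yeast lacks, read -1.14, -1.26, -1.02 and -0.90 in control and -0.71, -0.65, -0.59 and -0.57 in stressed rats. It rose 1.37-fold, by 0.45 ± 0.09 (limma adjusted p = 0.0754), with the groups apart. Med20 had a larger positive difference of 0.69 ± 0.29 that was not called (adjusted p = 0.241), and Med29 a smaller one of 0.22 ± 0.07 (adjusted p = 0.140). Med29 kept the groups apart, at -1.42 to -1.36 in control and -1.27 to -1.10 in stressed rats. Med20 did not, since control replicate 2 read -4.08, above all 4 stressed rats, and the other control rats -5.56 to -5.05.

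The 3 most negative differences of the head were small. They were -0.13 ± 0.07 for Med6 (adjusted p = 0.322), -0.08 ± 0.07 for Med17 (adjusted p = 0.525) and -0.05 ± 0.06 for Med28 (adjusted p = 0.649). Med17 is the scaffold of the head and a known contact of the polymerase. Med6 was the only one of the 3 whose groups did not overlap, at 0.35 to 0.46 in control and 0.15 to 0.32 in stressed rats. Med18, a head subunit under an older symbol, differed by -0.01 ± 0.09 (adjusted p = 0.973).

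In the middle module, which joins head and tail, 1 of 6 probes was called, beside 3.74% of all tested probes. Med4, one of its scaffold subunits, read -1.58, -1.49, -1.73 and -1.61 in control and -1.28, -1.18, -1.30 and -1.25 in stressed rats. It rose 1.28-fold, by 0.35 ± 0.07 (limma adjusted p = 0.0781), and the groups lay apart. Med14, the backbone that holds the modules together, differed by 0.67 ± 0.38 (adjusted p = 0.347). Its control replicate 2 read -3.51, above the -4.30 to -3.92 of the stressed rats and far above the -5.47 to -4.97 of the other control rats.

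Med31, a small subunit of the middle, differed by 0.15 ± 0.07 (adjusted p = 0.269) and its groups lay just apart, with control rats up to -0.56 and stressed rats from -0.52. Med10 differed by 0.13 ± 0.14 (adjusted p = 0.604), Med21 by -0.14 ± 0.09 at its brighter probe (adjusted p = 0.400) and Med1, the docking subunit for nuclear receptors, by -0.07 ± 0.19 (adjusted p = 0.856). The other probe of Med21 was the one member left untested. It was well above background on 1 of 4 control arrays and 0 of 4 stressed arrays. Med9, under an older symbol, differed by 0.51 ± 0.20 (adjusted p = 0.217). The expression of Med7, Med26 and the paralog of Med12 was not analysed here either, as no probe was matched to them.

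Seen rat by rat, the modules moved by small amounts. The brightest probe of each gene was set against its mean over all 8 rats and the median was taken over the module. The tail median was 0.12 to 0.17 in control rats and -0.22 to -0.06 in stressed rats, a difference of -0.28. It includes the 3′ probe of Med15 that chose the complex and leaves out the 5′ probe of Med15. For the kinase module the median was -0.13 to -0.03 in control and 0.02 to 0.10 in stressed rats, a difference of 0.16. It covers 4 genes, 2 with a positive difference (Ccnc and Med13) and 2 with a negative one (Med12 and Med13l). Cdk8 and Cdk19, under older symbols, are not in it. The head differed by 0.06 and the middle by 0.15, the latter with overlapping groups because control replicate 2 read 0.13. Over all tested probes the same median ran from -0.07 to 0.11 in control and from 0.01 to 0.06 in stressed rats.

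Where a gene carried several tested probes, the one nearest the 5′ end always had the more positive difference. This held for 5 of 5 such genes. The 5′ and the 3′ probe differed between the groups by 0.56 and 0.04 for Ccnc, -0.04 and -0.21 for Med12, 1.0 and -0.22 for Med13l, 0.41 and -0.44 for Med15, and 0.48 and -0.25 for Cdk19. Med15 was the only one with opposite signs that both exceeded 0.3 in size.

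The same measure was taken over the whole array, from 1874 transcripts that carry probes 300 or more bases apart. The median of 5′ minus 3′ signal in each rat, centred over the 8 rats, was -0.30, 0.22, -0.30 and -0.18 in control rats and 0.17, 0.15, 0.17 and 0.09 in stressed rats. The stressed rats and control replicate 2 lay above 0 and the other control rats below. For Med15, the 5′ minus the 3′ signal was -6.49, -4.94, -6.28 and -6.01 in control and -5.12, -4.98, -4.94 and -5.30 in stressed rats, with control replicate 2 again among the stressed rats. Control replicate 2 also lay within or above the stressed rats for Med12, Med13l and Cdk19. Cyclin C differed in this respect, with 0.75, 0.70, 0.67 and 0.74 in control and 1.31, 1.35, 0.87 and 1.40 in stressed rats, so that control replicate 2 lay among the control rats.

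RNA integrity was not analysed here, and its part in these differences was not tested. With the array's 5′ minus 3′ median as a covariate, limma called 10 of the 30 Mediator probes, 5 higher and 5 lower, and 2393 of all probes. The 3′ probe of Med15 then differed by -0.39, Ccnc at base 847 by 0.66, Med30 by 0.57 and Med13 by 0.32. Med4 differed by 0.27 and was no longer called (adjusted p = 0.103). The 5′ probes of Med15, Med13l and Cdk19 turned negative in this fit, as did Med20, Med14, Med22 and Med10. The covariate was 0.09 to 0.17 in stressed rats and -0.30 to -0.18 in control rats, control replicate 2 (0.22) apart. It thus nearly followed the groups, and differences adjusted for it rest largely on control replicate 2.

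**Figure D4:**
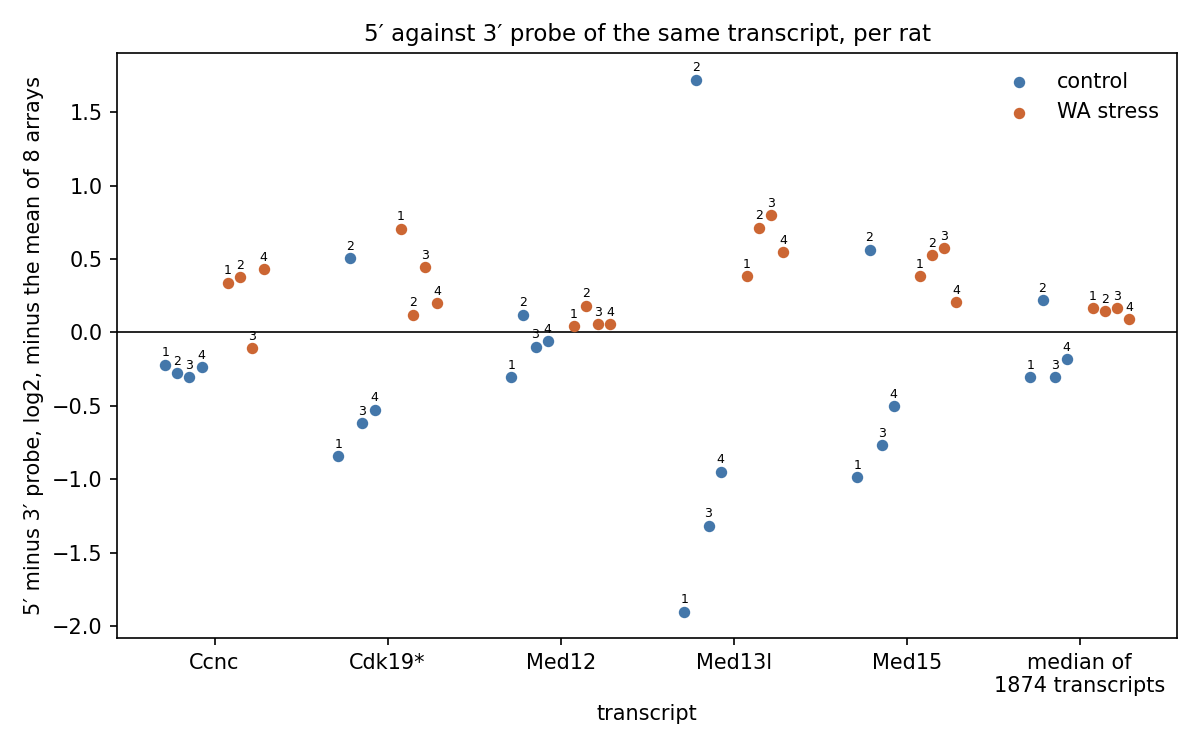
The 5′ minus 3′ signal of each rat, as the distance from the mean of the 8 arrays (y axis, log2), for the 5 Mediator genes with several tested probes and as the median of 1874 transcripts. Points are rats, numbered by replicate, in blue for control and orange for stress, and the asterisk marks a gene listed under an older symbol. Control replicate 2 sits with the stressed rats in 5 of the 6 columns and with the other control rats for Ccnc.

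Partners of the complex were taken from 4 lists, each gene by its brightest probe, and their counts stand beside 3.74% of all tested probes called and 20.3% at an unadjusted p below 0.05. Of 10 RNA polymerase II subunits, limma called 0, with 1 at an unadjusted p below 0.05, and the median difference was -0.09. Of 29 general transcription factors, which assemble with the polymerase at the promoter, it called 0, with 7 at an unadjusted p below 0.05 and a median of 0.05. Of 20 SREBP factors and targets, the pathway that Med15 is known to serve, 1 was called, with 4 at an unadjusted p below 0.05. The median was 0.01. Srebf1, itself an SREBP factor, had no probe under its symbol and is not among the 20. The called gene was Scd, a fatty acid desaturase, which rose by 0.31 ± 0.07 (limma adjusted p = 0.0919). It read 5.74 to 5.85 in control and 5.95 to 6.16 in stressed rats.

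Among 19 genes of P-TEFb, elongation complexes and cohesin, which act with Mediator after the polymerase has started, 1 was called higher and 2 lower, and the median difference was -0.01. Cdk9, the kinase of P-TEFb that releases paused polymerase, read -1.89, -1.76, -1.83 and -1.73 in control and -1.39, -1.29, -1.29 and -1.38 in stressed rats. It rose by 0.46 ± 0.07 (limma adjusted p = 0.0430), with the groups apart. Smc1a, a cohesin subunit, fell by 0.41 on the log2 scale, with control rats at 0.37 to 0.61 and stressed rats at 0.02 to 0.19 (adjusted p = 0.0683). Mllt3, a subunit of the super elongation complex, fell by 0.36, with control rats at -1.19 to -0.97 and stressed rats at -1.48 to -1.35 (adjusted p = 0.0797).

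The promoters were compared by sequence motif. RefSeq promoters of the GRCr8 assembly, from 250 bases before to 50 bases after the start, were found for 28 genes of the complex, and Med15, Med1, Med18, Med27 and Med30 had no entry. On either strand the GC box GGGCGG was present in 21 of the 28 (75%), beside 34.9% of 27457 promoters. The ETS motif CCGGAAG was present in 6 (21.4%, beside 9.22%) and CCAAT in 13 (46.4%, beside 37.7%). The median GC content was 59.0%, beside 52.3%. Of the tail genes, Med23 held the GC box and Med16, Med24 and Med25 did not. Among genes with a probe whose groups lay apart, promoters with it belonged to some with higher signals under stress (Ccnc, Med13, Med4, Cdk8, Med29 and Med31). Others had lower signals (Med6, Med12 at base 6604 and Cdk19 at its 3′ probe). A match describes these letters and is not a site.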

How the data were processed

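Agilent 1-colour arrays measured RNA of L6S1 cord, with 1 array for each of 4 stressed and 4 control rats. The deposited files hold a linear intensity per spot, written by Agilent Feature Extraction 10.7.3.1, which subtracted the background within each array. The deposited table of values equals that processed signal within 0.05. The flags for spots well above background are the scanner software's own. The program named for later steps is dChip, and its normalization is not given in the sources used here. Probe positions are on rn4.

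Here the 75th percentile of an array was subtracted from its log2 intensities, and spots of a probe were averaged after outlier spots were left out. Probes well above background on at least 4 of 8 arrays, 23677 of 30367, were compared with limma 3.58.1 in R 4.3.3, without covariates, two-sided, with Benjamini-Hochberg adjustment over all of them. The fit was tested on simulated data. Nothing in the labels tells whether samples share litters or cages, so p values measure the spread between these 8 samples, and their number limits the precision. The alternatives of the closing section changed 1 step at a time.

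Genes were named by rule: all Med15 probes, all called members, the brightest probe of each tail and kinase gene, the 3 largest differences each way in head and middle, genes with probes of clearly opposite sign, and called genes of 4 partner lists. Med9, Med10, Med18, Med22, the dimmer probes of Ccnc, Cdk19, Med12 and Med13l, and the genes named in the closing section alone were added after their values were seen. Members and lists were chosen with earlier results of these data known. The miRNA arrays were not analysed here. Also, 1 list of marker genes is not reported here.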

Additional observations from a re-analysis of the deposited data

Results flagged for a closer look

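In groups of 4 rats, a rat was singled out when its gap to the nearest other rat, divided by the range of the group, exceeded the critical value of Dixon's test. Chance singles out about 1 in 20 groups, or 3.8 of the 76 groups of Mediator values examined, and 7 were found. Control replicate 2 accounts for 4 of them: it was low for Med19 (gap over range 0.896), for Ccnc at base 1591 (0.920), for the 3′ probe of Med13l (0.902) and for Med1 (0.978). Over the 30 tested Mediator probes it lay above the other 3 control rats at 14, below them at 13 and between them at 3, and over all tested probes above at 55.3% and below at 26.0%. Control replicate 1 was high for Med6 (0.978), where the other 3 control rats agreed at 0.35. Stressed replicate 1 was high on the 3′ probe of Med15 (0.885), at 0.63 where the other stressed rats read 0.51 to 0.53. Stressed replicate 4 was low for the 5′ probe of Med15 minus the rest of the complex (0.867), at -4.01 where the others read -3.74 to -3.70. The part of RNA quality or tissue content in these values was not tested.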

How the results depend on the processing

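The counts of calls depended on the processing, while the 3′ probe of Med15 kept its sign under each of the 18 alternatives. All alternatives reuse the arrays on which that probe was picked, so its kept sign supports nothing by itself. Of all probes, 885 were called, of the Mediator probes 5. The counts were 215 and 1 with normexp background correction, 3010 and 6 without the filter on dim probes, 11983 and 18 with array weights, where control replicate 2 had a weight of 0.107, and 2393 and 10 with the 5′ minus 3′ covariate. Quantile normalization called 1251 and 3. With replicate number as a block (replicate block), which is also the column on the slide, limma called 0 of all probes and 0 of the Mediator probes, with 4292 and 9 at an unadjusted p below 0.05. Same-numbered rats deviated together with correlations of 0.10, 0.12, -0.09 and 0.31, and the best match of control rats 1 to 4 was stressed rat 3, 3, 4 and 4, so beyond the shared column of the slide the numbers were not taken to pair the rats. Leaving out 1 rat gave 0 to 10038 calls over all probes and 0 to 18 Mediator calls, the highest without control replicate 2. Leaving out any 1 of the other 7 rats gave 0 to 72 calls over all probes.

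The median difference of the Mediator probes, 0.09, was 0.021 after quantile normalization and -0.047 with the covariate, where the median of all probes moved from 0.06 to -0.04. The 5′ probe of Med15 minus the rest, 0.26, became -0.53 with the covariate. The cause of these changes was not tested. As given above, the covariate fit rests largely on control replicate 2.

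The covariate also turned the sign of Med18 (0.15), Med20 (-0.047), Med22 (-0.39), Cdk19 at base 3189 (-0.27), Med13l at base 5431 (-0.50) and at base 8479 (0.052), Med1 (0.38), Med10 (-0.17), Med14 (-0.28) and Med15 at base 1636 (-0.32). Array weights turned Med19 (-0.12), Med27 (0.078), Ccnc at base 2285 (-0.010), Med12 at base 6233 (0.032) and Med16 (0.027). Normexp turned Med18 (0.028) and quantile normalization Ccnc at base 2285 (-0.053). With 1 rat left out, differences that changed sign ranged from -0.065 to 0.038 for Med18, -0.12 to 0.20 for Med19, -0.088 to 0.060 for Med27, -0.12 to 0.057 for Med12 at base 6233, -0.27 to 0.0032 for Med1 and -0.16 to 0.051 for Med16. None of the 6 called probes of the complex, Cdk8 included, changed sign under any setting run. Uncalled probes such as those of Med11, Med17 and Med28 did not change sign either. The authors' table and 1 probe per gene symbol gave 5 Mediator calls, as did the main setting. The 5 largest standard errors were those of dim probes (Med13l at base 5431, Med14, Cdk19 at base 3189, Med20 and the 5′ probe of Med15), and their signal over background limits what can be said of them.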
